A study of Canis lupus familiaris with 34 samples.

Results

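The 9 primary dog osteosarcomas with the highest combined level of POSTN, FAP and LRRC15 were set against the 9 with the lowest, out of 28 primary tumours and 34 sequenced samples in all. For each tumour a score was taken as the mean of log2(FPKM + 1) over these 3 genes, where FPKM counts sequenced fragments per unit of transcript length and of library size. The tumours were ranked by that score, and every other gene was then compared between the 9 highest (called high below) and the 9 lowest (called low), with the 10 tumours between them left out. The groups are therefore defined by measured expression and carry no label of their own from the study.

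All tumours are described as bone tumours of Golden Retrievers, although the design text also names Rottweilers, so breed could not be compared. The series holds 30 primary tumour libraries, 1 metastasis, 2 osteosarcoma cell lines and 1 osteoblast culture, each made from total RNA. No treatment, age, sex or outcome is given for the high or the low tumours in the sources used here. Libraries DOS.46 and DOS.46.2 were averaged as 1 tumour, as were DOS.100 and DOS.32. Each of the other 26 libraries was taken as 1 tumour, and p-values measure the spread between these tumours.

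POSTN encodes periostin, a secreted matrix protein that binds collagen and integrins and is abundant in periosteum and in healing or scarred tissue. FAP encodes fibroblast activation protein, a serine protease on the surface of activated fibroblasts. LRRC15 encodes a leucine-rich repeat membrane protein induced by TGF-beta and found on fibroblasts in carcinomas and on mesenchymal tumours, osteosarcoma among them. In carcinomas these genes are read as marks of activated, matrix-depositing fibroblasts in the stroma. Osteosarcoma is itself a tumour of matrix-producing mesenchymal cells, so in bulk RNA a transcript of this kind cannot be assigned to the malignant or to the stromal cells. Nor can fewer cells of a type be told apart from less RNA per cell.

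No pair of the 3 genes showed a clear correlation across the tumours. Over the 28 tumours, POSTN and FAP correlated at Pearson's r = 0.26 (100000-permutation p = 0.181, adjusted over 3 pairs 0.544) and Spearman's rho = 0.271 (p = 0.162, adjusted 0.486). POSTN and LRRC15 gave r = -0.112 (p = 0.575, adjusted 0.862) and rho = 0.00712 (p = 0.974), and FAP and LRRC15 gave r = -0.0175 (p = 0.930) and rho = -0.00766 (p = 0.970). When the 2 tumours that lay farthest from the first gene's median were dropped from each pair, r was 0.351 for POSTN and FAP, 0.041 for POSTN and LRRC15 and -0.0853 for FAP and LRRC15. A missed threshold with 28 tumours does not show that the genes of a pair are unrelated. The label of an activated fibroblast state, under which the genes were grouped, is thus not matched by a clear shared pattern of all 3 genes. The tumours are called here by their score alone.

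**Figure D1:**
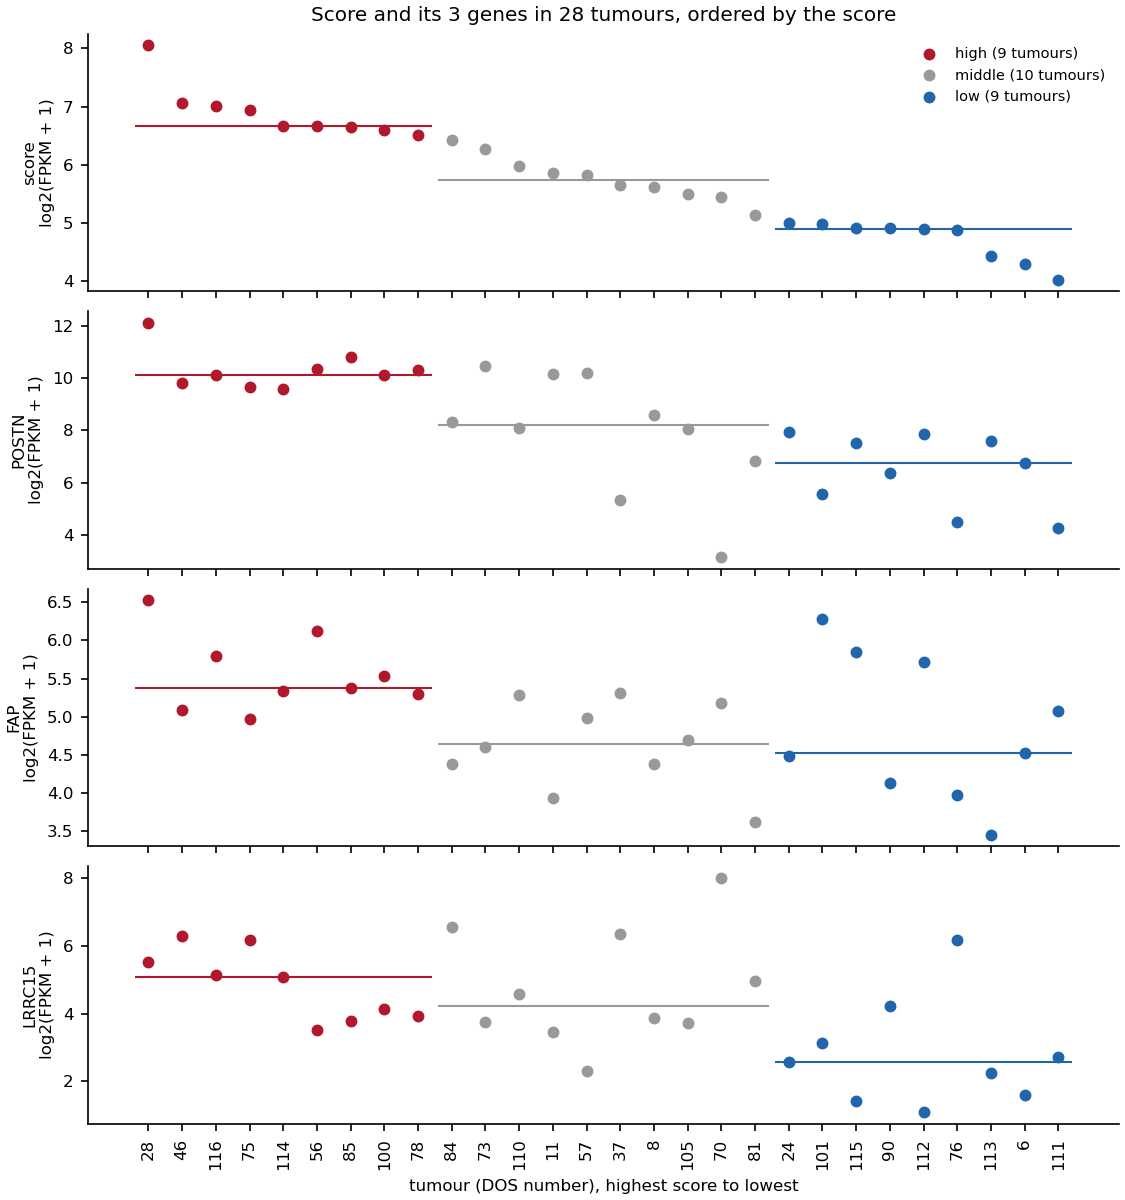
The score and the log2(FPKM + 1) of POSTN, FAP and LRRC15 in 28 tumours, ordered from the highest score to the lowest, with a horizontal line at the median of each group. POSTN separates the high from the low tumours, while FAP and LRRC15 overlap between them, and DOS.70 in the middle has the lowest POSTN and the highest LRRC15.

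The following values chose the groups and are given without a test. The score averaged 6.91 ± 0.471 in the high tumours and 4.70 ± 0.360 in the low tumours (SD, n = 9 each). At the edges of the groups, the score was 6.51 in the last high tumour (DOS.78) and 6.42 in the first one left out (DOS.84), and 5.004 in the first low tumour (DOS.24) against 5.14 in the last one left out (DOS.81). POSTN ran from 774 to 4432 FPKM with a median of 1117 in the high tumours, and from 18.4 to 247 FPKM with a median of 106 in the low tumours. Its groups did not overlap, and DOS.28 was far above the rest.

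FAP ran from 30.3 to 90.9 FPKM with a median of 40.6 in the high tumours, and from 9.98 to 77.0 FPKM with a median of 22 in the low tumours. The groups overlapped, since the low tumours DOS.101, DOS.115 and DOS.112 had 77.0, 56.6 and 51.8 FPKM of FAP. LRRC15 ran from 10.5 to 76.9 FPKM with a median of 32.5 in the high tumours, and from 1.12 to 70.7 FPKM with a median of 4.96 in the low tumours. The low tumour DOS.76 held the 70.7 FPKM. Over the 28 tumours the SD of log2(FPKM + 1) was 2.25 for POSTN, 1.72 for LRRC15 and 0.786 for FAP, so POSTN had the largest weight in the ranking and FAP the smallest.

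Tumours that were high in 1 of the genes were often not high in the others. Only 2 tumours were among the 9 highest for all 3 genes, while 19 were among the 9 highest for at least 1 of them. The 9 highest for POSTN and for FAP shared 5 tumours, those for POSTN and LRRC15 shared 2, and those for FAP and LRRC15 shared 3. Of the 9 tumours with the most POSTN, 6 were in the high group and 3 in the middle. Of the 9 with the most FAP, 6 were high tumours and 3 were low tumours. Of the 9 with the most LRRC15, 5 were high, 3 were in the middle and 1 was low.

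Outside the primary tumours each kind of sample was sequenced in 1 library, or 2 for the cell lines, and the genes came apart there too. The osteoblast culture had 84.3 FPKM of LRRC15 beside 2.47 FPKM of POSTN and 1.21 FPKM of FAP. The metastasis had 21.4 FPKM of POSTN, 11.1 FPKM of FAP and 0.295 FPKM of LRRC15. The line OSCA.8 had 19.7, 9.12 and 7.37 FPKM of POSTN, FAP and LRRC15, and the line OSCA.78 had 1.34, 0.334 and 2.03 FPKM.

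No gene differed between the high and the low tumours after correction for multiple testing. Of 14909 genes tested with limma on log2(FPKM + 1), 0 were higher and 0 were lower in the high tumours at an adjusted p under 0.05 (Benjamini-Hochberg, two-sided), which is 0% of those tested, and the smallest adjusted p was 0.462. At an unadjusted p under 0.05, 803 genes remained (5.39%), of which 433 were higher and 370 lower in the high tumours. Scaling each tumour to the same upper quartile gave 502 higher and 274 lower. A share of 5.39% is close to the 5% that this threshold passes when p-values are evenly spread, so the genes named below are described by their values and intervals and none of them is called changed. A missed threshold does not show that the groups were alike, since intervals reached beyond 1 log2 unit for many genes.

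**Figure D2:**
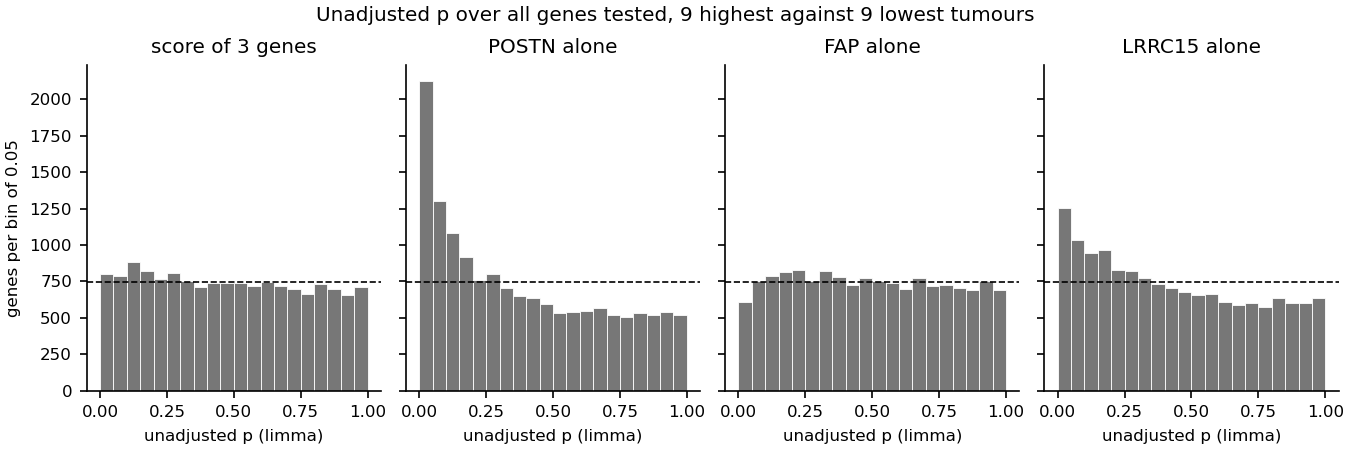
The number of genes in each bin of 0.05 of the unadjusted limma p, for 4 ways of ranking the 28 tumours, with a dashed line at the count expected if p-values were evenly spread. The ranking by the 3-gene score gave 803 genes in the first bin and the ranking by FAP 606, against 2126 for POSTN and 1255 for LRRC15.

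The genes with a symbol and the smallest p, picked out after their values were seen, were GXYLT2, ST6GALNAC3, GLT8D1, OGN, PTN, SH2B3, MOV10, PPAPDC1A, TMEM59L and AIG1, with adjusted p between 0.462 and 0.551. GXYLT2, a xylosyltransferase of the O-glucose glycans on Notch-type EGF repeats, ran from 28.1 to 74.7 FPKM (median 48.0) in the high tumours and from 13.3 to 41.4 FPKM (median 20.4) in the low tumours. The log2 difference was 1.13 (SE 0.225, limma adjusted p = 0.462). ST6GALNAC3, a sialyltransferase, had a log2 difference of 1.84 (95% interval 1.03 to 2.65), and GLT8D1, a glycosyltransferase-like protein, one of 0.85 (0.47 to 1.22). GLT8D1 was above every low tumour in 7 of 9 high tumours.

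PTN, the secreted growth factor pleiotrophin, ran from 437 to 1156 FPKM (median 570) in the high tumours and from 18.8 to 749 FPKM (median 113) in the low tumours, with a log2 difference of 2.33 (95% interval 1.23 to 3.43, adjusted p = 0.547). The groups overlapped, because the highest low tumour exceeded all but 1 of the high ones. On the lower side, SH2B3, an adaptor that restrains cytokine receptor signalling, ran from 5.19 to 11.8 FPKM (median 8.24) in the high tumours and from 12.2 to 35.7 FPKM (median 15.7) in the low tumours. It did not overlap between the groups, yet its adjusted p was 0.547. Only 4 genes of all those tested (0.0268%) had groups that did not overlap, and SH2B3 was the only one with a symbol. MOV10, an RNA helicase, had medians of 9.07 FPKM in high and 21.4 FPKM in low tumours (log2 difference -0.83), and PPAPDC1A, TMEM59L and AIG1 had log2 differences of 1.10, 1.28 and 1.26.

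The single smallest p belonged to a row known by its identifier alone, ENSCAFG00000029501, listed at 0 in all 9 low tumours. In the high tumours it ran from 0 to 127 FPKM with a median of 22.4, and 7 of 9 were above 0. Without DOS.116, and likewise without DOS.75, it passed the threshold (adjusted p = 0.00893 in each case). In all the other 16 fits that left out 1 tumour, 0 genes passed.

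Genes of collagen fibres and their assembly had mostly positive differences, with few members past an unadjusted p of 0.05 and none past the adjusted threshold. Of 18 listed stromal collagens, 14 were tested, 11 had a positive log2 difference and 2 had p under 0.05. The list's median difference was 0.42, against -0.03 over all genes tested, of which 46.3% were positive. Leaving out 1 tumour at a time moved the list's median between 0.28 (without DOS.75) and 0.61 (without DOS.85). COL1A2, a chain of type I collagen, ran from 5444 to 21005 FPKM (median 12718) in the high tumours and from 2870 to 16386 FPKM (median 5257) in the low tumours. The log2 difference was 1.03 (95% interval 0.31 to 1.75, adjusted p = 0.898), and 4 high tumours were above every low one. COL5A2, a chain of type V collagen, had medians of 943 and 631 FPKM in high and low tumours and a log2 difference of 0.83.

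Of the 19 genes that modify, cleave or crosslink collagen, 18 had a positive difference and 1 had p under 0.05, with a median of 0.45. That 1 was FKBP10, an endoplasmic reticulum isomerase needed for collagen crosslinking, with medians of 650 FPKM in high and 426 FPKM in low tumours (log2 difference 0.62, 95% interval 0.06 to 1.18). LOXL2 and LOXL4, lysyl oxidases, had log2 differences of 0.95 and 1.17, both with intervals that included 0. Of 11 chaperones and transport factors of the secretory route, 10 had a positive difference and 2 had p under 0.05, with a median of 0.12 that ran from 0.07 (without DOS.46) to 0.24 (without DOS.85). SEC23A, a coat protein of the vesicles that carry procollagen out of the endoplasmic reticulum, had medians of 81.7 FPKM in high and 59.6 FPKM in low tumours (log2 difference 0.62, 95% interval 0.16 to 1.07).

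The wider list of activated fibroblast genes, which excludes the 3 score genes, split. Of 21 tested, 16 had a positive difference, 4 had p under 0.05 and all 4 were higher in the high tumours, and the median was 0.57. Those 4 were ASPN, WISP1, TNN and FNDC1. ASPN encodes asporin, a small leucine-rich proteoglycan that binds collagen and TGF-beta, and ran from 255 to 1632 FPKM (median 491) in the high tumours and from 5.45 to 537 FPKM (median 152) in the low tumours. Its log2 difference was 2.27 (95% interval 0.82 to 3.72, adjusted p = 0.898). WISP1, a matricellular WNT target, had medians of 47.0 and 18.5 FPKM in high and low tumours and a log2 difference of 1.16. TNN, tenascin-W, a matrix protein of bone and tumour stroma, had medians of 131 and 59.9 FPKM and a log2 difference of 1.91. FNDC1, a fibronectin type III domain protein, had medians of 29.6 and 13.5 FPKM in high and low tumours.

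Several other members that usually mark activated fibroblasts had differences near 0. FN1, fibronectin, had a log2 difference of 0.00 (95% interval -0.68 to 0.69), CDH11, a mesenchymal cadherin, one of 0.11 (-0.62 to 0.84), and GREM1, a BMP antagonist, one of -0.11 (-1.06 to 0.84). Further from 0, THBS1, thrombospondin-1, had a log2 difference of -0.32 and CTHRC1, a secreted collagen triple helix protein, one of 0.57, both with intervals that included 0.

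Among small leucine-rich proteoglycans and fibrillin-fibre genes, 14 of 18 had a positive difference and 3 had p under 0.05, with a median of 0.43. That median rested on the low tumour DOS.101, without which it was 0.03 with 10 of 18 positive, and without DOS.115 it was 0.66. In the score without POSTN it was 0.04 with 9 of 18 positive. OGN, osteoglycin, a proteoglycan of bone and connective tissue that was also listed as a resting fibroblast gene, ran from 51.0 to 391 FPKM (median 182) in the high tumours and from 10.96 to 127 FPKM (median 33.9) in the low tumours. The log2 difference was 2.01 (SE 0.449, adjusted p = 0.547) and 7 of 9 high tumours were above every low one. OGN, ASPN and OMD are neighbours on 1 chromosome in the dog reference table, with 0 protein-coding genes between OGN and OMD and between OMD and ASPN. FBN2, a fibrillin of developing tissue, had medians of 7.11 and 1.38 FPKM in high and low tumours. ASPN is also counted in the activated fibroblast list and OMD in the bone matrix list.

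**Figure D3:**
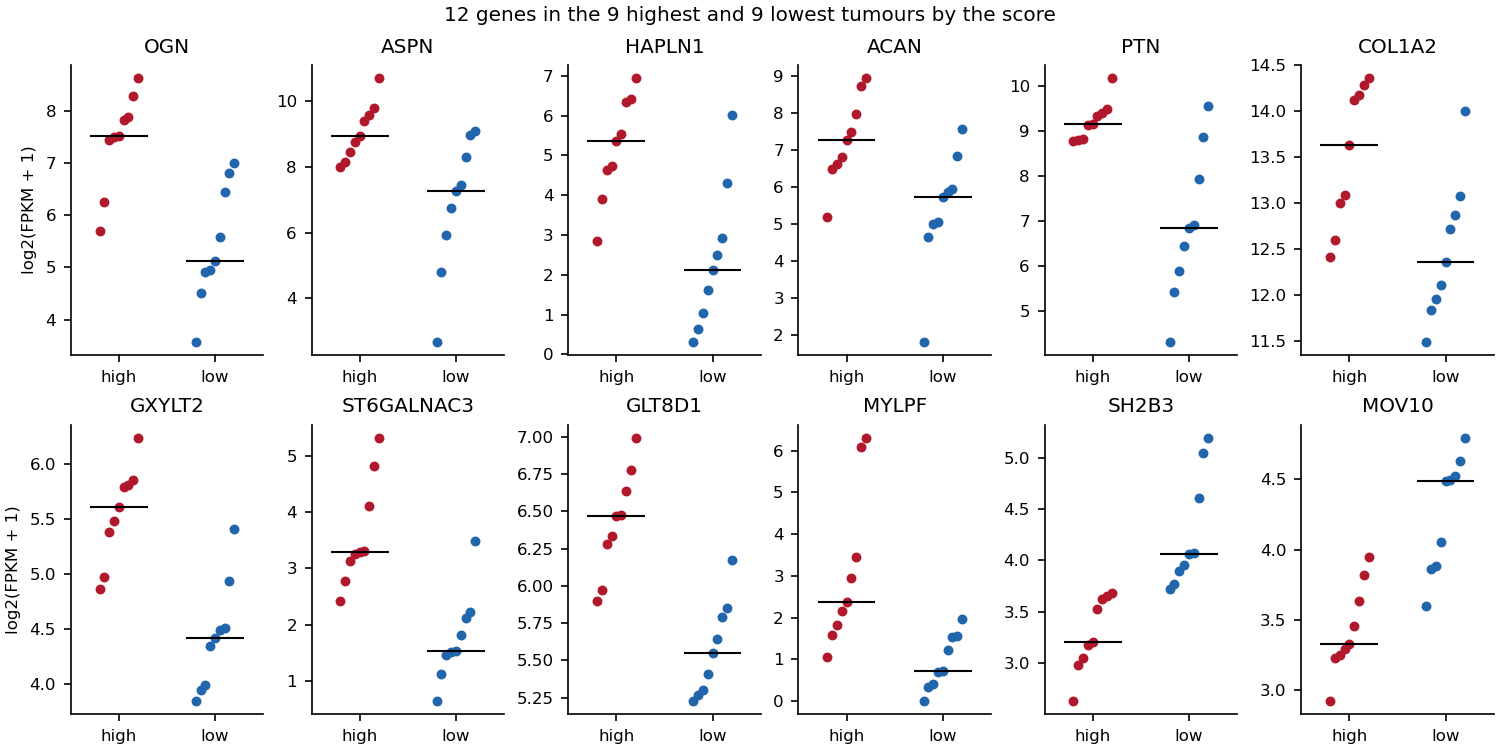
log2(FPKM + 1) of 12 genes in each of the 9 high (left) and 9 low (right) tumours, with a line at the median. SH2B3 is the gene shown whose groups do not overlap, and for PTN, ASPN, HAPLN1 and COL1A2 the highest low tumours lie within the range of the high ones.

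The TGF-beta and activin pathway, which induces POSTN and LRRC15 in fibroblasts, showed no common direction in the comparison by the score. Of 20 members tested, 12 had a positive difference and 2 had p under 0.05, and the median was 0.04. Leaving out 1 tumour moved the median between -0.10 (without DOS.28) and 0.09 (without DOS.116). Those 2 were FSTL1, a secreted follistatin-like glycoprotein, with medians of 677 FPKM in high and 404 FPKM in low tumours (log2 difference 0.72, 95% interval 0.13 to 1.32), and PMEPA1, a TGF-beta target that limits the pathway, with medians of 56.1 and 40.1 FPKM (0.67, 0.08 to 1.27). The receptors TGFBR1 and TGFBR2 had log2 differences of 0.01 and 0.06, the signal carrier SMAD3 one of 0.07 and the classic target CTGF one of 0.02 (95% interval -1.17 to 1.21). Ranked by 1 gene alone, the median of the list was -0.22 by POSTN, 0.01 by FAP and 0.26 by LRRC15 (5, 11 and 16 of 20 positive).

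Proteases, integrins and growth factors were mixed. Of 16 matrix proteases and inhibitors, 9 had a positive difference and the median was 0.28, which was 0.12 without DOS.28, 0.43 without DOS.85, -0.15 in the score without LRRC15 and -0.02 with 14 tumours per group. PLAU, the urokinase plasminogen activator, ran from 6.99 to 38.7 FPKM (median 14.8) in the high tumours and from 8.84 to 56.1 FPKM (median 39.7) in the low tumours, a log2 difference of -0.89 (95% interval -1.60 to -0.18). MMP16, a membrane-type metalloprotease, had medians of 17.8 FPKM in high and 7.93 FPKM in low tumours. Of 15 integrin genes, 7 had a positive difference, and the smallest p was that of ITGA3, a laminin receptor chain, with medians of 2.15 FPKM in high and 3.64 FPKM in low tumours (log2 difference -0.86, adjusted p = 0.898). Of 10 fibroblast growth factor, PDGF and other growth factor signal genes tested, 6 had a positive difference and 0 had p under 0.05. The full list also names insulin-like growth factors, HGF, MET, EGFR and VEGF genes. Its median was 0.14, which was 0.01 without DOS.113 and -0.20 with 7 tumours per group. FGF18, a growth factor of cartilage and bone, was nearest, with medians of 0.690 FPKM in high and 1.73 FPKM in low tumours.

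**Figure D4:**
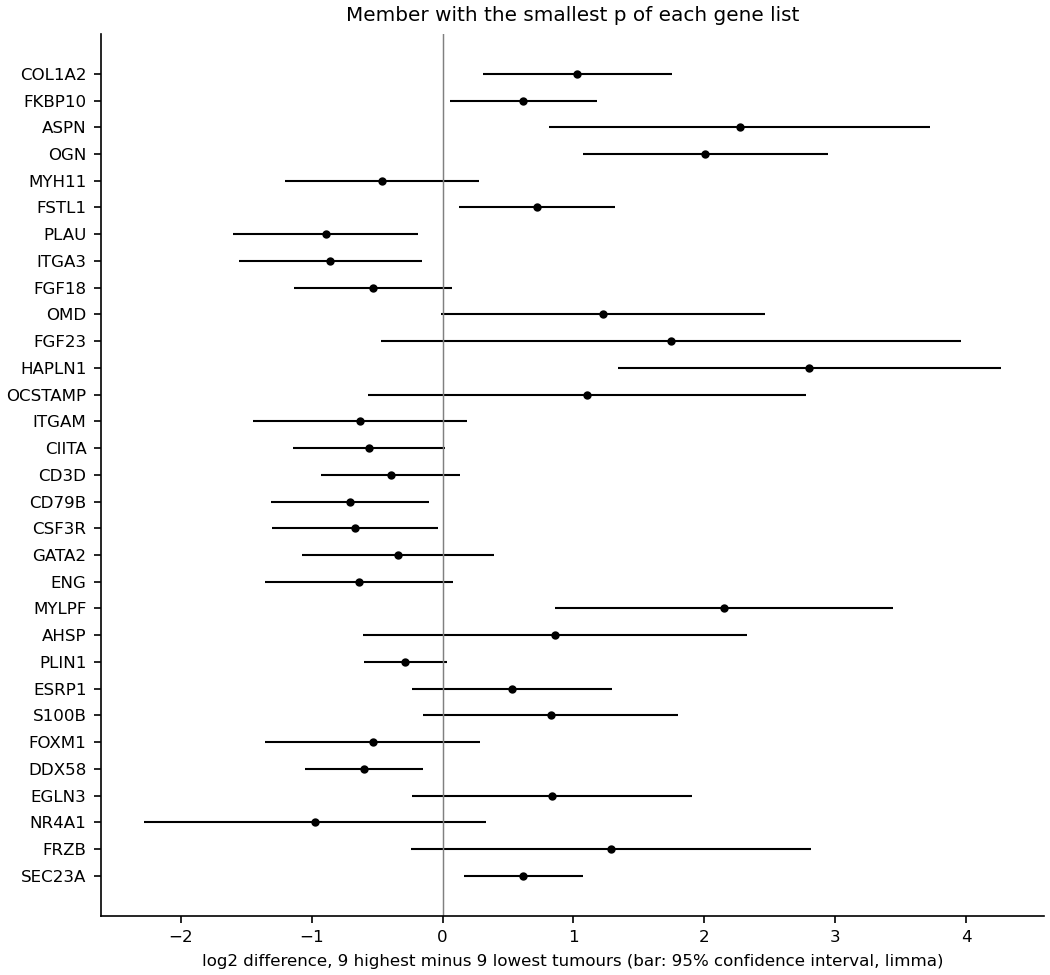
The log2 difference, high minus low tumours, of the member with the smallest p in each gene list, with its 95% confidence interval from limma. The genes run in the order of the lists from collagens to chaperones, and none of the 31 genes reached an adjusted p under 0.05.

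Cartilage genes had the highest median of any list, at 1.29 over 8 tested members, and all 8 differences were positive. This depended on POSTN, because with POSTN left out of the score the median was -0.26 and 4 of 8 were positive. ACAN, COL9A1, MATN4 and HAPLN1 had p under 0.05. HAPLN1, the link protein that anchors aggrecan to hyaluronan, ran from 6.15 to 121 FPKM (median 39.8) in the high tumours and from 0.248 to 63.7 FPKM (median 3.32) in the low tumours, a log2 difference of 2.80 (95% interval 1.34 to 4.27, adjusted p = 0.680). ACAN, aggrecan itself, ran from 35.3 to 490 FPKM (median 154) in the high tumours and from 2.53 to 188 FPKM (median 52.6) in the low tumours (log2 difference 1.90). COMP, a matrix protein of cartilage and tendon, had a difference of 0.20 (95% interval -1.43 to 1.82). Whether the tumours were of a chondroblastic type is not given in the labels.

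Bone matrix and osteoclast genes were less far apart. Of 10 mineralised bone matrix genes, 7 had a positive difference and 0 had p under 0.05, with a median of 0.39 that ran from 0.22 (without DOS.46) to 0.66 (without DOS.111). OMD, osteomodulin, a keratan sulphate proteoglycan of bone, had medians of 217 FPKM in high and 79.9 FPKM in low tumours (log2 difference 1.23, 95% interval -0.01 to 2.46). SP7, the osteoblast transcription factor osterix, had medians of 55.7 and 56.9 FPKM in high and low tumours. Of 7 osteocyte genes, 6 were positive with a median of 0.24, which ran from 0.02 with 4 positive (without DOS.85) to 0.76 (without DOS.111) as single tumours were left out. The osteocyte and bone matrix lists both name DMP1, MEPE and PHEX, so they are not separate results. FGF23, the phosphate hormone, reached 190 FPKM in 1 high tumour but had medians of 1.44 FPKM in high and 1.41 FPKM in low tumours. All 9 osteoclast genes had a positive difference with a median of 0.38 and 0 had p under 0.05. The sign depended on LRRC15 and on the group size, since the median was -0.14 with LRRC15 left out of the score and -0.02 with 14 tumours per group, 4 of 9 positive in each. OCSTAMP, which acts in the fusion of osteoclast precursors, had medians of 6.23 and 1.04 FPKM in high and low tumours.

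Markers of other cell types were measured in the same tumours, and their part in the differences above was not tested. No listed cell type marker with a row in the table was at 0 in all 28 tumours. The summed level of the 11 skeletal muscle genes measured, 10 of them tested, ran from 9.35 to 312 FPKM in the high tumours and from 6.25 to 41.7 FPKM in the low tumours. The list's median difference was 0.75, or 0.35 without DOS.28. All 10 differences were positive and 3 had p under 0.05 (MYLPF, MYL1 and TNNT1). MYLPF, a myosin light chain of fast muscle, had medians of 4.15 FPKM in high and 0.641 FPKM in low tumours, with 78.3 FPKM in DOS.28 and 67.0 FPKM in DOS.46. MYL1 and TNNT1 had 25.5 and 9.36 FPKM in DOS.28 but only 0.0884 and 0.334 FPKM in DOS.46. The 12 smooth muscle and pericyte genes summed to 262 to 1715 FPKM in the high tumours and 313 to 2335 FPKM in the low tumours, with 1 positive difference and a median of -0.42, which was -0.19 without DOS.115 and -0.27 without DOS.6. The median of that sum was nonetheless higher in the high tumours, at 660 FPKM against 591 FPKM in the low tumours. The 13 endothelial genes summed to 206 to 761 FPKM in the high tumours and 163 to 2134 FPKM in the low tumours, with 2 positive differences and a median of -0.35, which was -0.07 without DOS.113, -0.23 without DOS.6 and -0.56 without DOS.112. ENG, endoglin, a TGF-beta co-receptor of endothelium, had medians of 54.5 FPKM in high and 71.9 FPKM in low tumours.

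Most macrophage, T cell and class II genes had negative log2 differences, with groups that overlapped. The 15 macrophage genes summed to 113 to 1425 FPKM in the high tumours and 309 to 1480 FPKM in the low tumours, with 1 positive difference, that of CD68 (0.56), a lysosomal protein that osteoclasts also make. The median sum was higher in the high tumours, at 896 FPKM against 597 FPKM in the low tumours, while the median log2 difference of the list was -0.42. Without DOS.100 the median difference was -0.16 and without DOS.116 -0.17, and with 7 tumours per group it was -0.08. The 12 T cell genes measured summed to 2.83 to 76.8 FPKM in the high tumours and 3.95 to 90.8 FPKM in the low tumours. The 11 tested had 0 positive differences and a median of -0.35. That median was -0.21 without DOS.6 and 0.06 with LRRC15 left out of the score. CD3D, a chain of the T cell receptor complex, ran from 0 to 1.47 FPKM in the high tumours and from 0.171 to 3.28 FPKM in the low tumours. The 3 class II presentation genes had a median of -0.69, and CIITA, their master activator, had medians of 0.950 FPKM in high and 2.21 FPKM in low tumours (log2 difference -0.56, 95% interval -1.14 to 0.02). Near this level log2(FPKM + 1) understates a fold change. No immune gene list held a member above the adjusted threshold, and the unadjusted one was passed by CD79B, a B cell receptor chain (-0.71), and by CSF3R, the neutrophil growth factor receptor (-0.67). Most tested members of their lists went the other way, with 3 of 4 B and plasma cell genes and 4 of 6 neutrophil genes positive.

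The remaining marker lists held 11 or fewer tested genes each. Resting fibroblast genes had a median of -0.02 over 11 members, 5 of them positive, and a median of 0.02 after upper quartile scaling. Median differences were 0.05 over 4 B and plasma cell genes, 0.16 over 6 neutrophil genes, -0.04 over 4 mast cell genes, 0.55 over 2 erythroid genes, -0.26 over 2 adipocyte genes, -0.14 over 4 epithelial genes and 0.35 over 4 Schwann cell genes. Single tumours set most of these values. Without DOS.85 the median was -0.37 for neutrophil, 0.14 for erythroid, -0.30 for mast cell and -0.02 for B and plasma cell genes, and without DOS.114 it was -0.30 for neutrophil and 0.20 for erythroid genes. Without DOS.115 it was 0.29 for resting fibroblast, 0.17 for mast cell and -0.16 for adipocyte genes, and without DOS.101 it was -0.26 for resting fibroblast genes. Without DOS.111 it was -0.04 for epithelial and 0.92 for erythroid genes. The erythroid gene AHSP, a haemoglobin chaperone, reached 38.6 FPKM in 1 high tumour and 15.5 FPKM in 1 low tumour. GATA2, PLIN1, ESRP1 and S100B, the members nearest to the threshold in the mast cell, adipocyte, epithelial and Schwann cell lists, had log2 differences of -0.34, -0.28, 0.53 and 0.83, all with intervals that included 0.

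Of the cell programmes, the interferon response lay lowest, with 14 of 14 differences negative, 3 with p under 0.05 and a median of -0.61. With POSTN left out of the score, this median was -0.06 and 6 of 14 were positive. Ranked by 1 gene alone, it was -0.63 by POSTN, -0.51 by FAP and -0.13 by LRRC15 (0, 2 and 5 of 14 positive). DDX58, the RNA sensor RIG-I, ran from 2.14 to 11.5 FPKM (median 3.68) in the high tumours and from 6.01 to 10.6 FPKM (median 6.95) in the low tumours, a log2 difference of -0.60 (95% interval -1.05 to -0.15, adjusted p = 0.898). In 7 of 9 high tumours DDX58 was below every low tumour, while 1 high tumour was above them all. The other two were OAS2, an antiviral synthetase (-0.83), and IRF7, an interferon regulator (-0.95). Cell cycle genes had a median of -0.11 over 20 members, and FOXM1, a mitotic transcription factor, had medians of 5.92 FPKM in high and 9.01 FPKM in low tumours. The medians of the other lists were 0.19 over 6 hypoxia and glycolysis genes, -0.22 over 15 immediate early genes and 0.36 over 12 secreted WNT antagonists. The cell cycle median was 0.02 without DOS.101 and -0.29 without DOS.115, the immediate early one 0.01 without DOS.6 and -0.43 without DOS.85, the hypoxia one 0.08 without DOS.111 and 0.30 without DOS.56, and that of the WNT antagonists 0.20 without DOS.114. With POSTN left out of the score the immediate early median was 0.18 and that of the WNT antagonists -0.27. By POSTN alone the cell cycle median was 0.32 with 16 of 20 positive, against -0.14 by FAP and -0.31 by LRRC15 (2 of 20 positive in each). The hypoxia median was 0.13 by POSTN, -0.48 by FAP and 0.72 by LRRC15 (4, 0 and 5 of 6 positive). In these lists EGLN3, an oxygen-sensing hydroxylase, had a log2 difference of 0.83, NR4A1, an immediate early nuclear receptor, -0.97, and FRZB, a WNT antagonist of cartilage, 1.29, each with an interval that included 0.

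Because the 3 score genes ranked the tumours differently, the comparison was repeated with the 9 highest and 9 lowest tumours by each gene alone, a choice made after that was seen. The groups of the 4 rankings share tumours, so the results are given side by side and not as independent evidence. Ranking by POSTN gave 1 called gene (0.00671% of those tested) and 2126 genes at an unadjusted p under 0.05 (14.3%). Ranking by FAP gave 0 called genes (0%) and 606 (4.06%), and ranking by LRRC15 gave 0 called genes (0%) and 1255 (8.42%). The remaining score genes differed as follows, with no test. Ranked by POSTN the log2 difference was 0.47 for FAP and -0.34 for LRRC15, ranked by FAP it was 1.88 for POSTN and -0.32 for LRRC15, and ranked by LRRC15 it was 0.53 for POSTN and 0.25 for FAP.

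The 1 called gene was NRBP2, nuclear receptor binding protein 2, a pseudokinase, which was lower in the POSTN-high tumours. It ran from 9.37 to 19.4 FPKM (median 13.9) in the 9 tumours with the most POSTN and from 21.6 to 85.2 FPKM (median 38.1) in the 9 with the least, with no overlap. RAPGEF1 did not overlap between these groups either (4.33 to 9.99 against 10.5 to 26.5 FPKM). The share of all genes without overlap was not counted for the POSTN ranking. The log2 difference of NRBP2 was -1.48 (SE 0.213, limma adjusted p = 0.0131), lower in 9 of 9 tumours. It was called in 22 of 23 other settings of the POSTN ranking, with adjusted p between 0.00385 and 0.0464, and not with 7 tumours against 7 (log2 difference -1.46, adjusted p = 0.304). These settings mostly rescale the same tumours or leave 1 out, so they are not independent of each other. The adjustment covers the genes within 1 ranking and was not extended over the rankings by the score and by the other genes. Leaving out DOS.101 from the POSTN-low tumours took the calls to 3 higher and 8 lower, with ACAN, PTN and ITGA3 among them, and leaving out DOS.85 from the POSTN-high tumours gave 1 higher call, PPAPDC1A, beside NRBP2. The slope on POSTN over all 28 tumours gave 4 higher and 3 lower calls, with ACAN, PTN, TMTC2, EDIL3 and STAC2 beside NRBP2 among those with a symbol. ACAN was also called after upper quartile scaling, and 7 tumours against 7 gave 1 higher call, a row without a symbol.

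The genes next to the threshold differed between the rankings. By POSTN, ACAN came next after NRBP2, with a log2 difference of 2.91 (adjusted p = 0.0956). TRAF1, NPM3, RAPGEF1, WWC3, MED15 and HELZ2 followed at an adjusted p of 0.11 each, NPM3 with a positive difference (1.30) and the others with negative ones between -1.36 and -0.94. PTN (2.99) had an adjusted p of 0.116 and HAPLN1 (3.97) one of 0.122. All 8 cartilage genes were positive in this ranking with a median of 1.75, and 5 had p under 0.05. By FAP, OGN was nearest, with a log2 difference of 2.25 (SE 0.368, adjusted p = 0.0757), followed by ASPN with 2.52 (adjusted p = 0.967). All 18 proteoglycan and fibrillin genes were then positive with a median of 0.57. ECM2, a matrix protein whose gene lies beside ASPN with 0 protein-coding genes between them, had a log2 difference of 1.28.

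By LRRC15, the gene with the smallest p was CPN2, a subunit of carboxypeptidase N, with a log2 difference of 1.26 (adjusted p = 0.318). CPN2 ran from 0.397 to 5.195 FPKM (median 1.46) in the 9 LRRC15-high tumours and from 0.0872 to 0.304 FPKM (median 0.122) in the 9 LRRC15-low tumours, with no overlap. The share of all genes without overlap was not counted for this ranking. CPN2 lies next to LRRC15, with 0 protein-coding genes between them in the dog reference table. Osteoclast genes were all positive in this ranking, 6 of 9 with p under 0.05 and a median of 0.77, and bone matrix genes were positive in 9 of 10 with a median of 0.89. The other rankings gave negative medians for both, -0.25 by POSTN and -0.03 by FAP for osteoclast genes (2 of 9 positive in each) and -0.09 by POSTN and -0.21 by FAP for bone matrix genes (4 and 3 of 10 positive). T cell genes were negative in 11 of 11, 8 with p under 0.05 and a median of -0.74, while the FAP ranking gave 11 of 11 positive with a median of 0.25 and the POSTN ranking 2 of 11 with a median of -0.14.

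The wider activated fibroblast list followed the rankings to different degrees. Its median difference was -0.06 by POSTN, 0.31 by FAP and 0.53 by LRRC15, with 10, 16 and 17 of 21 members positive. Stromal collagens had medians of -0.01, 0.38 and 0.53 in these rankings. Resting fibroblast genes had medians of 0.02 by POSTN, 0.58 by FAP and -0.82 by LRRC15. Whether these medians differ between the rankings beyond the spread between tumours was not tested.

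**Figure D5:**
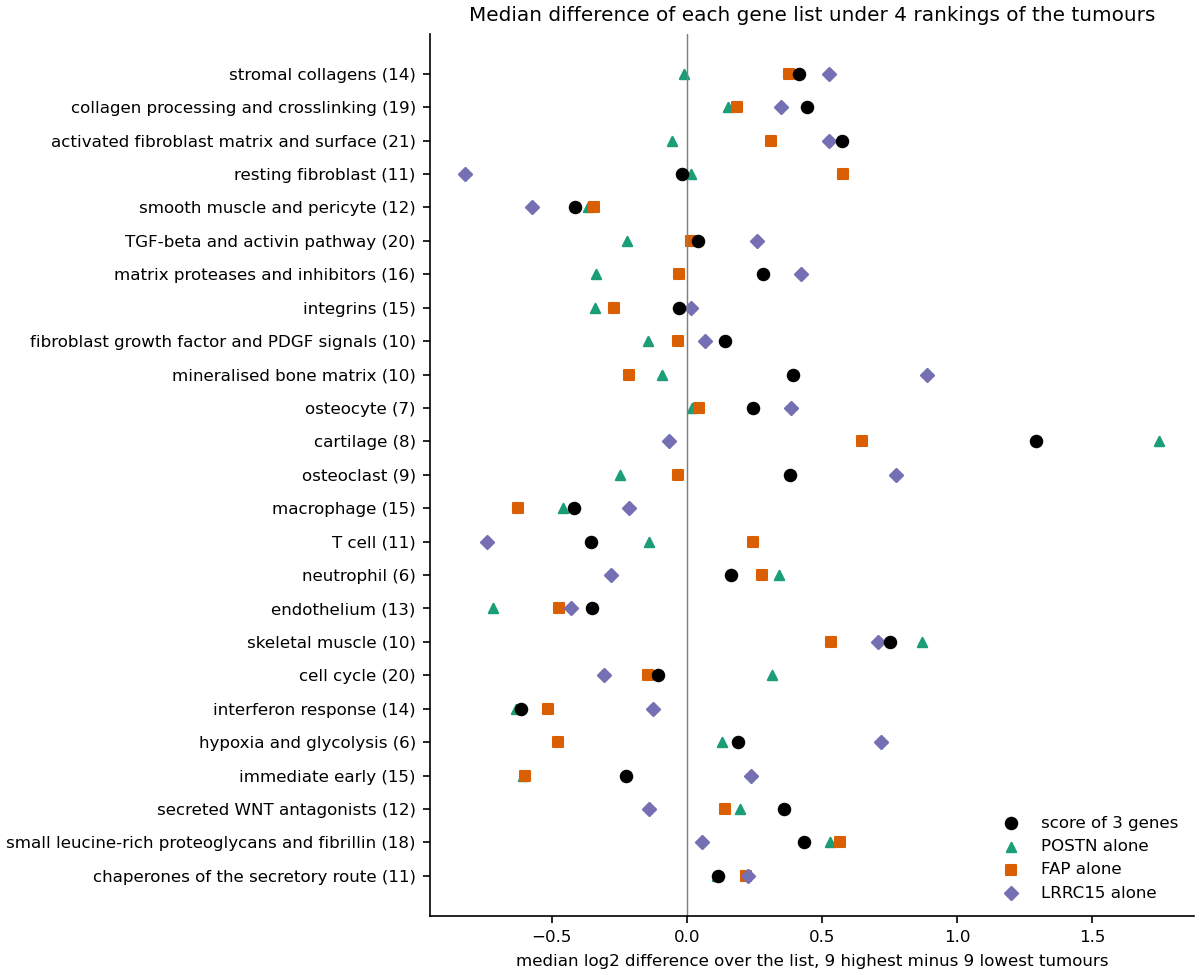
The median log2 difference, highest 9 minus lowest 9 tumours, of each gene list with at least 6 tested members (their number in brackets), for the 3-gene score and for POSTN, FAP and LRRC15 alone. Cartilage stands at 1.29 by the score and 1.75 by POSTN but at -0.07 by LRRC15, and the resting fibroblast and T cell lists lie on opposite sides of 0 for FAP and LRRC15.

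The 10 tumours between the groups took no part in the fit and allowed a look at direction. With no called gene to follow, the 803 genes at an unadjusted p under 0.05 were used. In the middle tumours 550 of them (68.5%) had a slope on the score with the same sign as their difference, against 56.9% of all genes tested. This depended on the grouping, because with 7 tumours per group and 14 in the middle it was 46.3% against 48.3% of all genes.

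Technical measures of the libraries did not differ beyond the spread within the groups. Sequencing depth is unknown, as no counts are at hand, and the summed FPKM had medians of 655904 in high and 657866 in low tumours. The number of genes above 0 had medians of 17107 and 16926, and the 10 most abundant genes held a median of 17.3% of the sum in high and 14.9% in low tumours. The FPKM worth of 1 fragment, read from low values relative to the median library, had a median of 1.01 in each group. Exact permutation tests of the 4 measures, adjusted over them, gave p between 0.617 and 0.785 (n = 9 each, two-sided). Libraries DOS.110, in the middle, and DOS.115, in the low group, deviated alike from the mean tumour, with r = 0.671 across genes. The averaged pairs had 0.844 (DOS.100 and DOS.32) and 0.731 (DOS.46 and DOS.46.2), and the next pair below had 0.468. With these libraries averaged as 1 tumour, 0 genes were called higher and 0 lower.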

How the data were processed

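RNA from 34 dog samples (total RNA made into TruSeq RNA v2 libraries per the labels' protocols, read on an Illumina sequencer) was deposited by the authors as 1 table of 23988 gene rows, whose values were read as FPKM. The header names no unit. The submitters' processing notes list FastQC 0.11.2, TopHat2 2.0.13, Cufflinks 2.2.1 and canFam3, with no order. The gene annotation: not given in the sources used here. Of the rows, 14335 carry a symbol. Depth is unknown, so no counting interval was computed.

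From these values, libraries were averaged and tumours ranked as described above. Genes with at least 1 FPKM in at least 2 of 28 tumours were tested (14909, without the 3 score genes) in limma 3.58.1 under R 4.3.3 (lmFit, eBayes with trend and robust, two-sided) on log2(FPKM + 1), with Benjamini-Hochberg adjustment over all of them and a threshold of 0.05. Single measures were compared with exact permutation tests in SciPy 1.17.1. The fit was tested on simulated data with independent, normally spread values and large differences, which does not show its power for differences of the size seen here. The named genes were to be the called genes with the largest differences and, for each of 32 lists, the called members, or the member with the smallest p where none was called. The members and lists were chosen with earlier results of these data known. Lists are described by counts and medians, without a test, and some genes stand in several lists. Listed genes without a named row, or below the filter, were not analysed here. Alternatives covered the pseudocount, filter, scaling, group size, score, merged libraries, fit and each tumour left out. A dog RefSeq table of another assembly (UU_Cfam_GSD_1.0) served only to name neighbouring genes, and promoter sequences were not used here.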

Additional observations from a re-analysis of the deposited data

Results flagged for a closer look

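In 11 of 78 sets of values examined (14.1%), the highest or lowest tumour of a group lay apart from the others by Dixon's 95% criterion. Chance meets this criterion in about 1 of 20 sets only for independent, normally spread values. The sets here include values that chose the groups and values near 0, so the 14.1% was not tested against that rate. The high tumour DOS.28 stood apart in the score (8.05, next 7.06) and in log2(FPKM + 1) of POSTN (12.1, next 10.8), which chose the groups. On the same log2 scale, DOS.56 stood apart for CIITA (2.36, next 1.30) and DOS.114 for CSF3R (1.58, next 0.61) among the high tumours. Among the low tumours, DOS.115 stood apart for MYH11, a smooth muscle myosin, at 5.15 (next 3.41), for OMD at 3.14 (next 6.15) and for the share of the 10 most abundant genes at 37.5% (next 21.5%). The low tumour DOS.111 stood apart for AHSP (4.04, next 1.27), DOS.76 for DDX58 (3.53, next 3.10) and DOS.6 for EGLN3 (6.20, next 3.21). The FPKM worth of 1 fragment, relative to the median library, was 2.03 in the low tumour DOS.113 (next 1.36). Without DOS.28 or without DOS.115, 0 genes were called.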

How the results depend on the processing

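The counts of called genes were 0 higher and 0 lower in every setting planned for the score except when 1 tumour was left out, where the count higher ran from 0 to 1 and the count lower stayed at 0. POSTN alone gave 1 lower, and up to 4 higher and 8 lower in other settings of that ranking. Apart from the fits without 1 tumour (0.00893 at the least), the smallest adjusted p for the 3-gene score was 0.0680, for the slope over 28 tumours. At an unadjusted p under 0.05 the score without POSTN gave 1484 genes and without LRRC15 1897, against 803. The share of same-sign slopes in the middle tumours was 46.3% with 7 tumours per group and 75.6% with DOS.100 and DOS.32 apart (background 60.6%). Of 1142 alternative values for the 31 genes named from the lists, 1114 kept their sign and 0 had an adjusted p under 0.05. The 28 opposite ones came from other group sizes or scores, and the cause was not tested. With 14 tumours per group the log2 difference was 0.00425 for FGF18 and -0.0233 for OCSTAMP. Without POSTN it was -0.00866 for FSTL1, -0.742 for HAPLN1, 0.142 for GATA2, -0.177 for AHSP, 0.0346 for PLIN1, -0.294 for ESRP1, -0.911 for S100B, 0.215 for FOXM1 and -0.714 for FRZB. Without LRRC15 it was -0.454 for OCSTAMP and 0.00737 for CD3D. By POSTN alone it was -0.596 for OCSTAMP. By FAP alone it was 0.254 for MYH11, -0.113 for OCSTAMP, 0.0051 for CIITA, 0.207 for CD3D, -0.240 for ESRP1 and -0.594 for EGLN3. By LRRC15 alone it was -0.351 for HAPLN1, 0.187 for GATA2, -0.0686 for AHSP, 0.0367 for PLIN1, -0.0321 for ESRP1, -0.637 for S100B, 0.0517 for FOXM1 and -0.519 for FRZB. List medians turned sign in at least 1 of the 18 fits without 1 tumour for the resting fibroblast, TGF-beta, integrin, B and plasma cell, neutrophil, mast cell, cell cycle and immediate early lists, and for no other list. No paired analysis was possible because the groups are different tumours split by the score, with no pairing given in the sources used here.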
